A study of Mus musculus with 4 samples.

Results

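The nuclear genes for the mitochondrial respiratory chain were examined in macrophage cultures grown from the bone marrow of wild-type mice and of mice labelled GM1082 KO. Members were chosen by gene symbol. They are the rows whose symbol starts with Nduf, Uqcr, Cox4 to Cox8 or Atp5, together with Sdha, Sdhb, Sdhc, Cyc1 and Cycs, with pseudogene symbols left out. This gave 89 of the 62046 rows of the expression table. Complex I has 36 of them (7 core and 29 accessory subunits), complex II has 3, complex III has 9 and complex IV has 17. Complex V has 15, cytochrome c has 1, and 8 are Ndufaf factors, which help to assemble complex I. Ndufa4 and its paralogue Ndufa4l2 were placed with complex IV, in which NDUFA4 protein is found, although their names point to complex I. Sdhd, Atp5l and Cox6b2 would also fall under the rule, but no row carried these symbols, so they were not analysed here.

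Both genotypes received M-CSF, the cytokine that drives marrow progenitors towards macrophages, for 5 days, and each is represented by 2 libraries of total RNA. The control is wild type and the other group carries the GM1082-/- genotype. The labels give no strain, sex or age and do not state how many animals were used. The p-values below therefore measure the spread between these libraries only, which may be technical. All values are FPKM, that is fragments scaled to gene length and library size, a level meant to be comparable between genes. In these data that comparability is uncertain. The mean was 4572 FPKM for mt-Co1 but 55.3 for mt-Co2, which is cut from the same polycistronic transcripts. Rps28, a ribosomal protein gene that all cells use, reached 0.0753 at most. Comparisons of level between genes, paralogue percentages among them, therefore describe the deposited values only.

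The respiratory chain passes electrons from NADH (complex I) and succinate (complex II) through ubiquinone to complex III, by cytochrome c to complex IV and on to oxygen. The protons pumped on the way drive ATP synthase, complex V. Complexes I, III, IV and V are built from subunits of nuclear and mitochondrial genes together, while all subunits of complex II are nuclear. In macrophages the balance between respiration and glycolysis is known to shift with activation. The nuclear genes are scattered over the chromosomes, and the transcription factors NRF1, GABP (of the ETS family) and YY1 are textbook regulators of many of them.

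Promoter sequences show what some of these genes share beyond their names. RefSeq promoters on GRCm38.p6, from 250 bases before to 50 bases after the annotated start, were matched for 73 of the 89 members, and short motifs were searched on both strands. The motifs were chosen with these promoters at hand, so the shares below are descriptions and no test of enrichment. The palindrome CGCATGCG, the core of the NRF1 site, replaced a longer form that was searched first. This core was found in 11 members, which is 15.1% of the 73. It was found in 2.07% of 27025 genes with a promoter and in 4.62% of 8580 protein-coding genes at a mean of 1 FPKM or more. The 11 are Cycs, Cox6a1, Uqcr11, Uqcrc1, Atp5g2, Atp5j, Atp5k, Ndufa8, Ndufa11, Ndufaf4 and Ndufaf5. The YY1 motif AAGATGGC was found in 11 members (15.1%, against 3.19% of all genes and 5.65% of the expressed genes), and 9 of these 11 matches began between 11 and 39 bases after the start. The ETS motif CCGGAAG was found in 16 members (21.9%, against 9.93% of all genes and 21.6% of the expressed genes). As contrasts, the E-box CACGTG was in 5 members (6.85%, against 8.09% and 12.0%) and TATAAA in 5 members (6.85%, against 15.7% and 8.82%). Among the 52 matches in members, 0 pairs of different motifs overlapped, and a match is a description of letters, not of binding. The next 4 lines show the 170 bases directly before the RefSeq start of 4 members with the NRF1 core upstream, among them Cycs and Cox6a1, whose values are followed below. Members whose window lies deeper in their row of the expression table are not shown, and of the Cox6a1 window the last 23 bases lie inside it. Capitals mark the core, and each line reads 5′ to 3′ on the strand of the gene.
Cycs, chr6:50566570-50566739, minus strand: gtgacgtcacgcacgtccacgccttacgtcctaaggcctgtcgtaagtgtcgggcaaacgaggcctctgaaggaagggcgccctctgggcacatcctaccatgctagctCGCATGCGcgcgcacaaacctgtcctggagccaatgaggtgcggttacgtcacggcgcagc
Cox6a1, chr5:115348959-115349128, minus strand: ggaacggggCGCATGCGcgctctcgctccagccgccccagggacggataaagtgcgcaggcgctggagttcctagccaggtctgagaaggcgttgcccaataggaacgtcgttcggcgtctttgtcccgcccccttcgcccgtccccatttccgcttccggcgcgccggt
Ndufa11, chr17:56717592-56717761, plus strand: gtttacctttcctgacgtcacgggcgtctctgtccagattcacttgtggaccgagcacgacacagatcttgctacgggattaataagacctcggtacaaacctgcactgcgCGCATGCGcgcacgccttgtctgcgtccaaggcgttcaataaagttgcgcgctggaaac
Ndufaf4, chr4:24897913-24898082, plus strand: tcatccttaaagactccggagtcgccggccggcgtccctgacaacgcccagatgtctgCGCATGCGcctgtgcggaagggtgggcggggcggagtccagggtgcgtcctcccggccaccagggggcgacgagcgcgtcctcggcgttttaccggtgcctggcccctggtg
The core begins 59 bases before the start in Ndufa11, 61 in Cycs and 112 in Ndufaf4, while in Cox6a1 (161) it lies farther away. Besides the core, the promoter of Atp5j holds the YY1 and the ETS motif. The genes with the NRF1 core spanned a wide range of levels. Cox6a1 had a mean of 52.2 FPKM over the 4 libraries, Cycs 7.93 and Ndufa11 0.320. Of the 10 of these 11 that were tested, 7 had a higher mean in the knockout, with a median log2 difference of 0.12. Of the 14 tested members with the ETS motif, 11 had a higher mean, with a median of 0.046, and of the 9 with the YY1 motif, 5 did, with a median of 0.074. Of the 5 with the E-box and the 5 with TATAAA, 4 each had a higher mean, with medians of 0.022 and 0.089. Over all 82 tested members the share with a higher mean was 63.4% and the median 0.032, and differences between the motif groups were not tested.

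Many members also have a neighbour that starts close by on the opposite strand. For 33 of the 89 members (37.1%) another named gene began within 1 kb on the other strand, against 11.6% of all 21500 rows with a symbol and 15.5% of those at a mean of 1 FPKM or more. Several of these neighbours serve mitochondria too. Atp5j, the F6 coupling subunit of ATP synthase, starts 700 bp from Gabpa, the DNA-binding subunit of GABP. Ndufs6, an accessory subunit of complex I, starts 29 bp from Mrpl36, a mitochondrial ribosomal protein gene, and Ndufb5 starts 615 bp from Mrpl47, another. Ndufb5 and Mrpl47 were at similar levels, with Ndufb5 at 2.40 and 2.53 FPKM in the wild-type libraries and 2.16 and 2.35 in the knockout and Mrpl47 at 2.17 and 2.47 in wild type and 2.04 and 2.59 in the knockout. Atp5j was lower than its partner. It measured 2.95 and 2.86 FPKM in the wild-type libraries and 1.84 and 3.01 in the knockout, while Gabpa measured 9.78 and 11.1 in wild type and 9.51 and 12.0 in the knockout. The lowest Atp5j value and the lowest Gabpa value were in knockout replicate 1, and the genotypes overlapped for both genes. Mrpl47 covers 4.23% of the Ndufb5 span and Gabpa 9.03% of the Atp5j span, on the opposite strand. Reads may be shared between these rows, so their levels are uncertain.

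The libraries were of similar depth. The steps between low values show that a gene of 1 kb at 1 FPKM rested on 17.6 to 19.0 fragments. The row at the position of Gm1082, a RefSeq synonym of Arhgap33os, was at 0.0792 and 0.0198 FPKM in the wild-type libraries and 0.0639 and 0.0624 in the knockout, which is far under the filter for testing and does not check the genotype labels. Macrophage markers were present, with Csf1r, the M-CSF receptor, at 121 and 117 FPKM in the wild-type libraries and 104 and 113 in the knockout. The 8 macrophage markers summed to 2487 to 2511 FPKM in the wild-type libraries and 1934 to 2158 in the knockout (6 of 8 lower on average, 3 without overlap). Lyz2, lysozyme, carried this gap, and without it the sums were 604 and 552 in wild type and 561 and 572 in the knockout, with overlap. All 8 neutrophil markers were also present. They summed to 15981 to 16985 FPKM in the wild-type libraries and 18113 to 20996 in the knockout. On average 8 of 8 were higher, 4 without overlap (S100a8, S100a9, Mpo and Elane). S100a8 (7586 to 8738 over the libraries) and S100a9 (7380 to 10167) made up most of each sum. Ngp, Ltf and Camp peaked in knockout replicate 1 (1530, 197 and 104) but were lowest in knockout replicate 2 (732, 88.7 and 29.0). Ly6g also peaked in replicate 1, while replicate 2 lay between the wild-type libraries. The 7 markers of mast cells and of basophilic and eosinophilic granulocytes summed to 71.2 to 78.9 FPKM in wild type, and to 196 and 101 in knockout replicates 1 and 2 (7 of 7 higher, 6 without overlap). Among all tested rows, 13.2% were higher and 17.7% lower in the knockout without overlap. The 6 B cell markers summed to 114 to 171 and 135 to 169 FPKM, the 5 T and NK cell markers to 1.85 to 2.51 and 3.10 to 6.31, and the 5 erythroid markers to 15.1 to 16.1 and 12.6 to 13.2. No marker was at 0 in all 4 libraries, and Ncr1 and Trac were listed at 0 in 1 wild-type library each. The part of these cell mixtures in the results below was not tested, and in such bulk samples fewer cells of a type and less RNA per cell cannot be told apart.

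The members together made up a small and even share of the transcriptome. Their FPKM summed to 2192 and 2262 in wild type and to 2299 and 2353 in the knockout. The means were 2227 ± 49.8 and 2326 ± 38.1 (SD, n = 2 each), a ratio of 1.04. Both knockout sums lay above both wild-type sums, the nearest pair being 2262 and 2299. As shares of the library total the genotypes overlapped, at 0.691% and 0.716% in wild type and 0.708% and 0.736% in the knockout. Sums carry no test, since the smallest two-sided p of an exact permutation test on 2 libraries per group is 0.33. By complex, the knockout sum relative to wild type was 1.04 for complex I, 1.05 for complexes II, IV and V, 1.03 for complex III and 1.02 for the Ndufaf factors. Within complex I the core subunits, which carry the flavin and iron-sulfur centres, had a ratio of 0.995 and the accessory subunits 1.05. Within complex V, the catalytic F1 part had a ratio of 1.05 and the stalk and membrane part 1.03. Accessory subunits of complex I summed to 498 and 503 FPKM in the wild-type libraries and 523 and 532 in the knockout without overlap. Core subunits summed to 154 and 161 in wild type and 150 and 164 in the knockout, and these overlapped. Complex IV summed to 654 and 656 FPKM in wild type, 720 in knockout replicate 1 and 661 in replicate 2. F1 subunits summed to 379 and 415 in wild type and 399 and 437 in the knockout, with overlap.

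**Figure D1:**
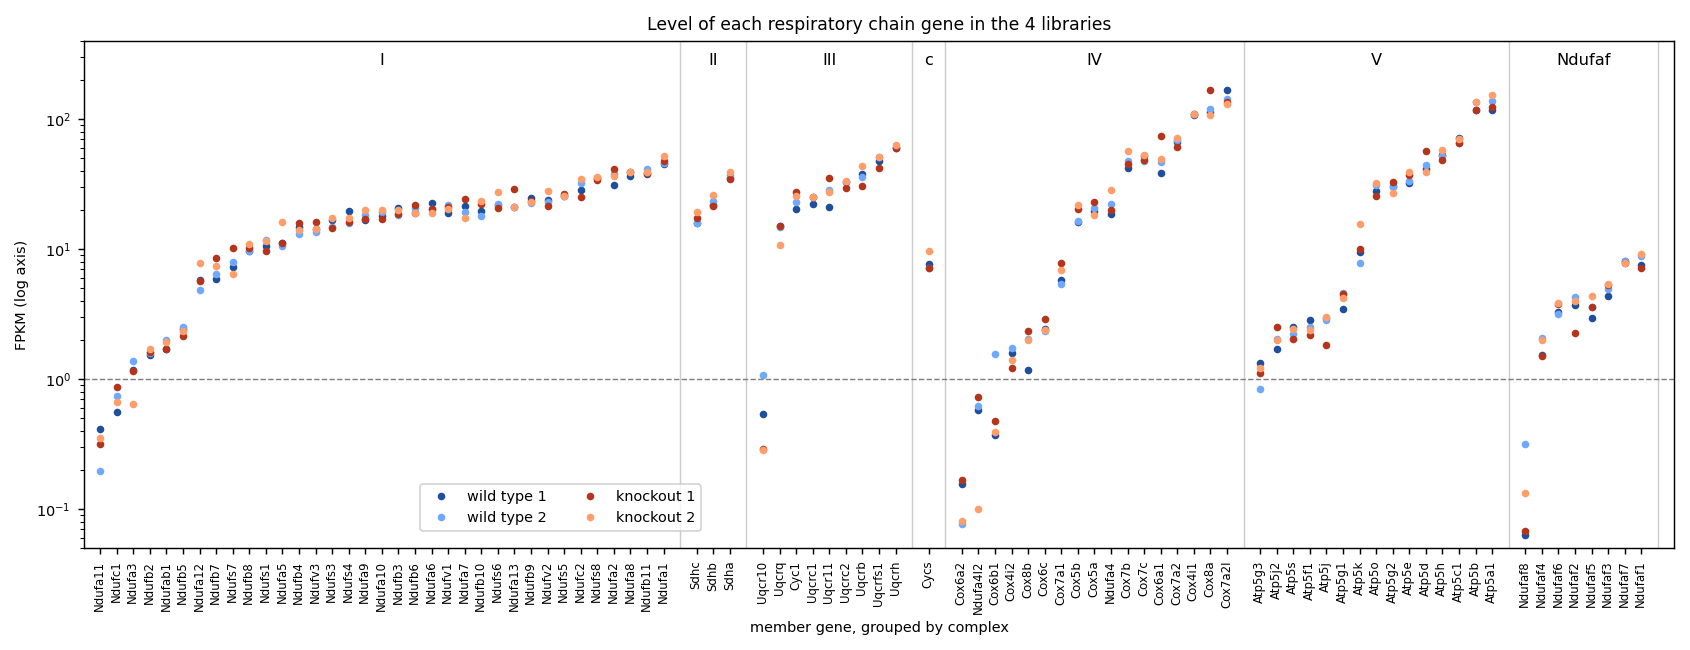
FPKM (log axis) of 88 of the 89 members in the 4 libraries, grouped by complex (Ndufaf marks assembly factors, c cytochrome c) and ordered by mean level, with a dashed line at 1 FPKM, the filter for testing. The points of a gene lie close together compared with the range between genes, which runs from a mean of 0.12 to 144 FPKM.

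Levels differed far more between the subunits of a complex than between libraries. Mean FPKM ran from 0.320 to 47.6 in complex I, with a median of 18.9, and from 0.547 to 60.8 in complex III, with a median of 27.9. In complex IV it ran from 0.12 to 144 with a median of 20.3, and in complex V from 1.12 to 133 with a median of 29.3. The 3 subunits of complex II were closer to each other, between 17.1 and 36.5, and the Ndufaf factors were low, between 0.144 and 8.17. In all, 43 members had a mean above 20 FPKM and 20 had one under 3. Across the 89 members, pairs of libraries correlated with a Pearson r of 0.988 to 0.995 on the log2 scale. This is a correlation across genes that share the same libraries, and the pair with the lowest r was that of the knockout replicates.

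Among the most abundant members of complex I were Ndufa1, a small accessory subunit encoded on chromosome X, and Ndufb11, an accessory subunit of the membrane arm. Ndufa1 was at 45.1 and 46.0 FPKM in the wild-type libraries and 47.3 and 51.9 in the knockout, so that both knockout libraries were higher. Ndufb11 was at 37.8 and 41.1 in wild type and 38.4 and 39.0 in the knockout, with overlap. The members of complex I with the smallest p were Ndufb7 and Ndufb10, accessory subunits of the membrane arm on the side of the intermembrane space. Ndufb7 was at 5.87 and 6.45 FPKM in the wild-type libraries and 8.50 and 7.37 in the knockout, with no overlap, a log2 difference of 0.32 (SE 0.13, limma adjusted p = 0.954). Ndufb10 was at 19.6 and 18.1 in wild type and 22.1 and 23.3 in the knockout, also without overlap, a log2 difference of 0.25 (SE 0.11, limma adjusted p = 0.971). Over the 34 members of complex I that were tested, 21 had a higher and 13 a lower mean in the knockout, and the median log2 difference was 0.029. None of the 7 core subunits had groups without overlap, and their median was 0.014. The 27 accessory subunits tested had 6 higher (22.2%, against 13.2% of all tested rows) and 2 lower (7.41%, against 17.7%) without overlap and a median of 0.054. The difference between core and accessory subunits was not tested.

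Complex II, succinate dehydrogenase, sits in both the respiratory chain and the tricarboxylic acid cycle. Sdha, the flavoprotein, was at 35.5 and 36.9 FPKM in the wild-type libraries and 34.4 and 39.0 in the knockout. Sdhb, the iron-sulfur subunit, was at 21.9 and 23.3 in wild type and 21.4 and 25.9 in the knockout. For both genes the knockout libraries lay on either side of the wild-type ones. Sdhc, a membrane anchor, was at 15.9 and 15.8 in wild type and 17.4 and 19.2 in the knockout, so that the groups did not overlap. The log2 differences of the 3 genes lay between 0.017 and 0.19, and none passed (limma adjusted p = 1.00 for each).

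In complex III, Uqcrh, the hinge protein at the docking site of cytochrome c, was steady at 60.3 and 60.4 FPKM in the wild-type libraries and 59.4 and 63.2 in the knockout. Uqcrfs1, the Rieske iron-sulfur protein, was at 47.9 and 51.4 in wild type and 42.2 and 50.7 in the knockout. Uqcrb, a small subunit, was at 38.1 and 35.5 in wild type and 30.5 and 43.8 in the knockout. For these 3 genes the genotypes overlapped, and for Uqcrb the knockout libraries held both the lowest and the highest value. Cyc1, the haem protein cytochrome c1, was at 20.4 and 22.9 FPKM in the wild-type libraries and 27.2 and 25.4 in the knockout without overlap. Its log2 difference was 0.27 (SE 0.12, limma adjusted p = 0.964). Uqcr11, a small subunit, was at 21.0 and 28.4 in wild type and 35.0 and 27.2 in the knockout, which overlapped. Of the 8 tested, 4 had a higher and 4 a lower mean, with a median log2 difference of 0.0064 (-0.018 with equal summed FPKM and -0.017 with quantile normalization). Cycs, the somatic cytochrome c that carries electrons from complex III to complex IV and also acts in apoptosis, was at 7.70 and 7.10 FPKM in the wild-type libraries and 7.18 and 9.73 in the knockout. Its level was below that of all tested subunits of complex III, and its genotypes overlapped.

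Of the 14 tested members of complex IV 11 had a higher mean in the knockout, and the median log2 difference was 0.14. This median was 0.025 when the filter on low values was lowered to 0.1 FPKM or dropped, 0.087 without wild-type replicate 1 and 0.084 without knockout replicate 1. Cox5b (ENSMUSG00000061518, chromosome 1, 36691449 to 36693681, plus strand, in coordinates of the table, read as GRCm38), a nuclear subunit that binds zinc, was at 16.2 and 16.3 FPKM in the wild-type libraries and 20.2 and 22.0 in the knockout without overlap. Its log2 difference was 0.36 (SE 0.11, unadjusted p = 0.0176, limma adjusted p = 0.817), the smallest p of the 82 members tested. The Cox5b pseudogene Gm11273 was at 9.14 and 7.66 FPKM in the wild-type libraries and 9.98 and 7.77 in the knockout, so reads may be shared between the 2 rows and the value of Cox5b is uncertain. Cox7a1 (ENSMUSG00000074218, chromosome 7, 30184144 to 30186078, plus strand), the form of subunit VIIa typical of heart and muscle, was at 5.78 and 5.39 in wild type and 7.80 and 6.90 in the knockout, again without overlap. Its log2 difference was 0.34 (SE 0.13, unadjusted p = 0.0392, limma adjusted p = 0.895). Cox6a1 (ENSMUSG00000041697, chromosome 5, 115345642 to 115348981, minus strand), the widely expressed form of subunit VIa, was at 38.4 and 47.0 in wild type and 73.9 and 49.6 in the knockout. Its log2 difference of 0.50 was the largest of all tested members (SE 0.21, limma adjusted p = 0.940), and knockout replicate 1 alone lay far above the other 3 libraries. Leaving that library out gave a log2 difference of 0.22.

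The most abundant members of complex IV moved in different ways from library to library. Cox7a2l, which joins complexes III and IV in supercomplexes, was at 168 and 142 FPKM in the wild-type libraries and 136 and 130 in the knockout, with both knockout libraries below wild type (log2 difference -0.21, limma adjusted p = 1.00). Cox8a, a small membrane subunit, was at 114 and 120 in wild type and 168 and 108 in the knockout, so that the knockout libraries bracketed the wild-type ones. Cox4i1, the usual form of subunit IV, ranged only from 107 to 110 over the 4 libraries.

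In complex V the F1 genes were all abundant, while genes of the stalk and membrane part ranged widely. The 2 parts overlapped in level. Atp5h of the peripheral stalk had a mean of 52.7 FPKM, above the F1 genes Atp5d (45.4) and Atp5e (35.6). Atp5b, the catalytic beta subunit, was at 117 and 135 FPKM in the wild-type libraries and 117 and 136 in the knockout, and Atp5a1, the alpha subunit, at 117 and 138 in wild type and 123 and 152 in the knockout. Atp5c1, the rotating gamma subunit, was at 71.7 and 64.8 in wild type and 65.2 and 70.1 in the knockout. In each of the 3 the genotypes overlapped. Atp5e, the epsilon subunit of the rotor, was at 32.1 and 33.5 in wild type and 37.4 and 39.3 in the knockout without overlap, a log2 difference of 0.22 (SE 0.10, limma adjusted p = 1.00). Atp5k, subunit e of the membrane part, was at 9.53 and 7.83 FPKM in the wild-type libraries and 10.1 and 15.7 in the knockout. Its groups did not overlap, but knockout replicate 1 was close to wild-type replicate 1. The log2 difference was 0.49 (SE 0.22, limma adjusted p = 0.971). The 10 genes of the stalk and membrane part had a median level of 3.42 FPKM, with 5 under 3, against a median of 68.0 for the 5 F1 genes. This part was taken as all members of complex V outside F1. It thus counts the coupling factor Atp5s (mean 2.30 FPKM), and Atp5g1, Atp5g2 and Atp5g3 separately, which affects its median. Usmg5, a further subunit of the membrane part that the naming rule does not catch, was at 91.6 and 93.1 FPKM in the wild-type libraries and 87.9 and 123 in the knockout.

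The Ndufaf assembly factors were led by Ndufaf1, a factor that joins intermediates of the membrane arm, at 7.55 and 8.87 FPKM in the wild-type libraries and 7.14 and 9.14 in the knockout with overlap. Ndufaf6 was at 3.27 and 3.14 in wild type and 3.75 and 3.84 in the knockout without overlap, and Ndufaf5, an enzyme that hydroxylates a core subunit during assembly, at 2.93 and 3.60 in wild type and 3.56 and 4.34 in the knockout with overlap. Ndufaf2 had the lowest log2 difference of all tested members, -0.31, and was at 3.68 and 4.30 FPKM in the wild-type libraries and 2.24 and 4.01 in the knockout. Its second knockout library lay between the wild-type ones. Of the 7 tested, 3 had a higher and 4 a lower mean, with a median of -0.015.

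Across all 82 members that reached a mean of 1 FPKM, none passed an adjusted p of 0.05 with limma, and the smallest adjusted p was 0.817. Of all 24535 rows tested, 3 passed, which is 0.0122% (0.0239% of the 12564 tested rows with a symbol). At an unadjusted p under 0.05, 2 members were higher in the knockout, Cox5b and Cox7a1, and 0 were lower, where 2.5% of all rows were higher and 2.85% lower (2.97% and 1.98% of those with a symbol). Groups without overlap were found for 15 members higher in the knockout (18.3%) and 6 lower (7.32%). Over all tested rows the shares were 13.2% higher and 17.7% lower, and over those with a symbol 14.6% and 13.8%. The mean was higher in the knockout for 52 of the 82 (63.4%), against 47.5% of all tested rows and 53.5% of those with a symbol. The median log2 difference was 0.032, against -0.010 for all rows and 0.011 for rows with a symbol. The 95% confidence interval, which is not adjusted for the number of rows, reached a median of 0.33 to either side of the difference. Smaller changes were not detectable for many members, and passing the adjusted p takes larger ones. Cox6a1, with a log2 difference of 0.50, had a limma adjusted p of 0.940. The 6 lower members were Cox7a2l, Cox4i2, Atp5f1, Ndufb5, Ndufa3 and Ndufaf7, of which 4 had a mean under 3 FPKM.

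**Figure D2:**
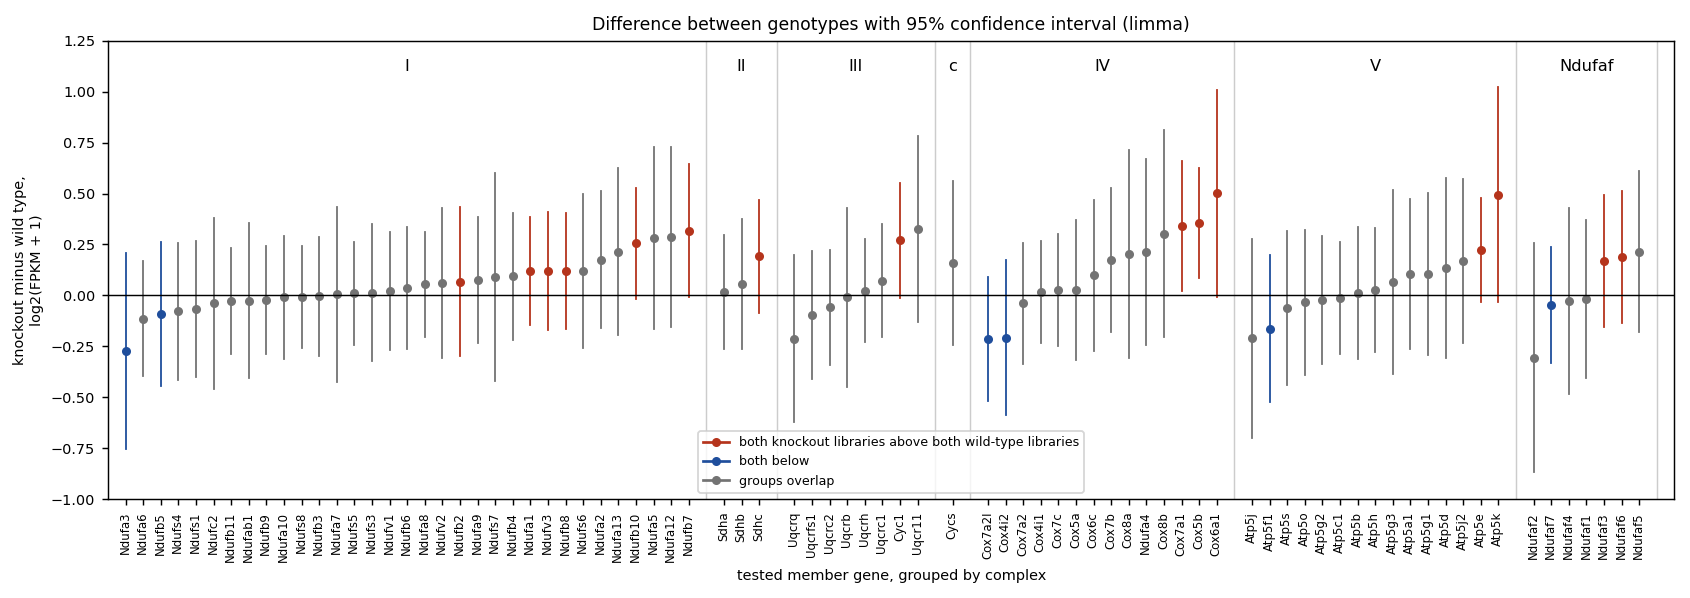
Difference of log2(FPKM + 1), knockout minus wild type, for 81 of the 82 tested members, with 95% confidence intervals from limma, grouped by complex. Red marks 15 members with both knockout libraries above wild type, blue 6 with both below and grey the rest. Apart from Cox5b and Cox7a1, all intervals include 0.

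The gaps between replicates were set beside the differences between genotypes. For 67 of the 82 tested members the larger of the 2 replicate gaps exceeded the difference between genotypes, as it did for 19677 of the 24535 rows. Gaps between single libraries vary more than differences of means, so most rows do this by construction, and it is not particular to the members. The median gap on the log2 scale was 0.11 between the wild-type libraries and 0.19 between the knockout libraries. The median size of the genotype difference was 0.093, which for the same reason is not directly comparable with the gaps. The knockout gaps went both ways. Cox8a, Ndufs7, Cox6a1 and Atp5d were lower in replicate 2 by more than 0.5, with values of -0.63, -0.59, -0.57 and -0.51. Atp5d, the F1 delta subunit, was at 41.4 and 44.4 FPKM in the wild-type libraries and 56.5 and 39.3 in the knockout. Ndufs7, an iron-sulfur subunit of the complex I core, was at 7.23 and 7.90 in wild type and 10.2 and 6.41 in the knockout. For both, knockout replicate 1 was the highest of the 4 libraries and replicate 2 the lowest. Higher in replicate 2 by 0.5 or more were Ndufaf2 (0.63), Atp5k (0.59), Uqcrb (0.51) and Ndufa5 (0.50). Ndufa5, an accessory subunit of complex I, was at 11.1 and 10.6 FPKM in the wild-type libraries and 11.1 and 16.1 in the knockout, so that 3 libraries were alike and replicate 2 was above them. In replicate 1 the granulocyte marker sums given above were the highest of the 4 libraries. Their part in these gaps was not tested.

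**Figure D3:**
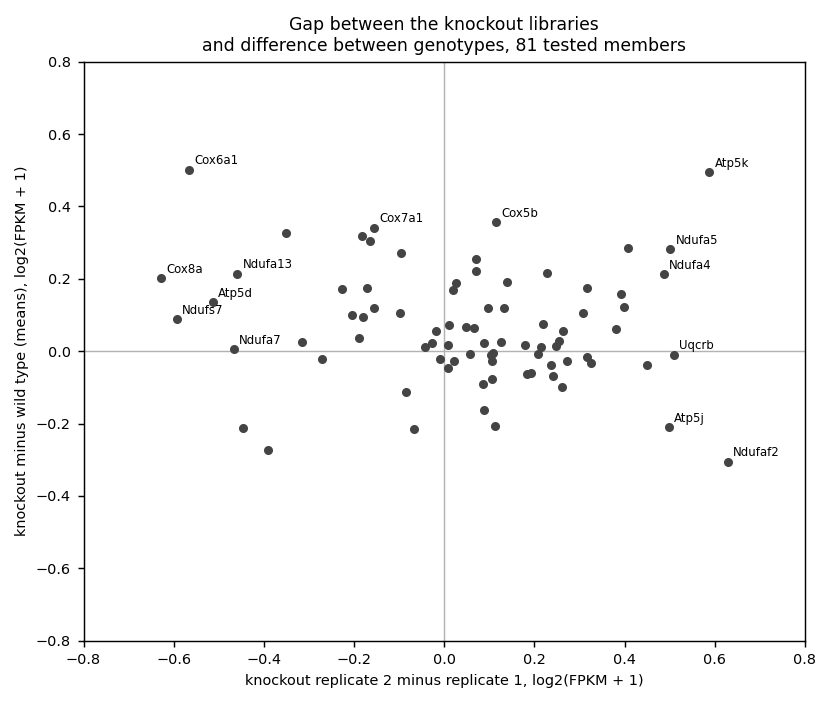
For 81 of the 82 tested members, the gap between the knockout libraries (replicate 2 minus replicate 1, horizontal) and the difference between genotype means (vertical), both on the log2(FPKM + 1) scale. Cox6a1 and Atp5k, with the largest genotype differences (0.50 and 0.49), also had knockout gaps beyond 0.5 in size, in opposite directions, while Cox5b had a small gap.

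In each set of paralogous genes compared here, 1 predominated in every library. The set for subunit VIIa left out Cox7a2l, which at 130 to 168 FPKM was above Cox7a2 in every library. Cox6b2 and Cyct had no row, so Cox6b1 and Cycs had no partner to compare. Cox4i2, a form of subunit IV known from lung and hypoxia, was at 1.60 and 1.73 FPKM in the wild-type libraries and 1.22 and 1.40 in the knockout, which is 1.37% ± 0.211 of the Cox4i1 level (SD, n = 4 libraries). Both knockout libraries were below both wild-type ones, without passing (log2 difference -0.21, limma adjusted p = 1.00). Cox6a2, the heart and muscle form of subunit VIa, was at 0.154 and 0.0771 in wild type and 0.166 and 0.0810 in the knockout, or 0.238% ± 0.113 of Cox6a1. The smallest whole fragments in this ratio are 2, 1, 2 and 1, and at such counts no difference could be detected. The actual counts may be multiples of these, and the gene was under the filter and was not tested. Cox8b, the heart and muscle form of subunit VIII, was at 1.17 and 2.04 in wild type and 2.35 and 1.99 in the knockout, or 1.49% ± 0.360 of Cox8a. Cox7a1 stood out among the muscle forms, at 8.66% and 7.78% of the Cox7a2 level in wild type and 12.8% and 9.60% in the knockout. Cox7a2, the widely expressed form, was at 66.8 and 69.3 FPKM in the wild-type libraries and 60.9 and 71.9 in the knockout, with overlap. The muscle markers Ckm, Acta1 and Myh7 were at 0.0757 FPKM or less in every library, and Tnnt3 was at 2.38 to 2.89. Of the pair in complex IV with Nduf names, Ndufa4 was at 18.7 and 22.2 FPKM in the wild-type libraries and 19.9 and 28.3 in the knockout. Its hypoxia-related paralogue Ndufa4l2 was at 0.575 and 0.622 in wild type, 0.721 in knockout replicate 1 and 0.101 in replicate 2. The 3 genes for the c ring of ATP synthase, which encode the same mature protein, were uneven. Atp5g2 was at 30.5 and 29.8 FPKM in the wild-type libraries and 32.8 and 27.0 in the knockout. Atp5g1 was at 14.0% ± 1.95 of it and Atp5g3 at 3.76% ± 0.794, and for all 3 the genotypes overlapped.

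**Figure D4:**
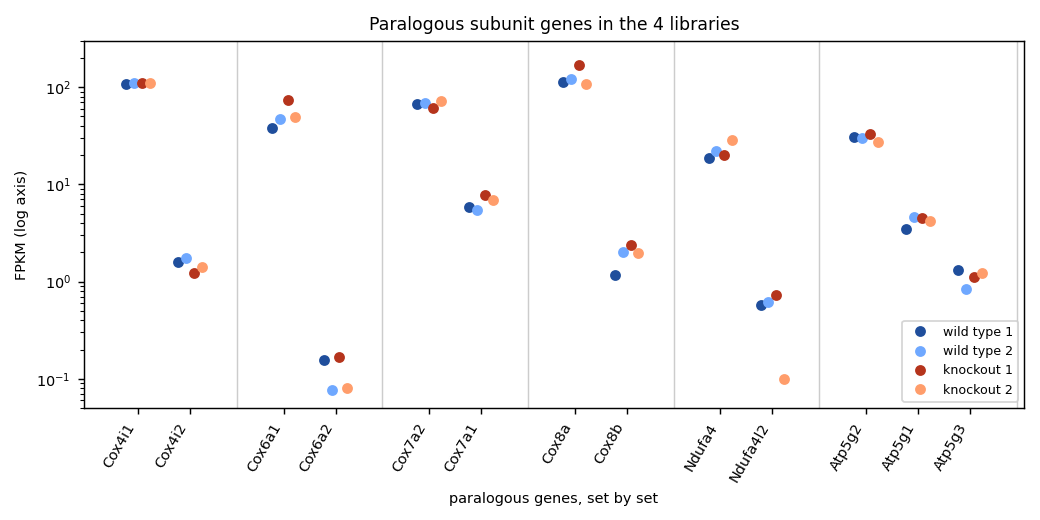
FPKM (log axis) of paralogous subunit genes in the 4 libraries, 1 point per library. In each set drawn, the first gene is the most abundant in all 4 libraries, and Cox7a1 and Atp5g1 are the minor forms nearest to it. Cox7a2l is not drawn.

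A number of subunits that the complexes need in every tissue were listed at low levels. Of the 20 members under 3 FPKM, 4 are paralogues of other tissues or states (Cox6a2, Cox4i2, Cox8b and Ndufa4l2), 2 are assembly factors (Ndufaf8 and Ndufaf4) and 1 is the coupling factor Atp5s. The other 13 were counted as general subunits, 6 of complex I, 1 of complex III, 2 of complex IV and 4 of complex V. The complex V count includes Atp5g3, which encodes the same mature protein as the more abundant Atp5g2. The low level of Atp5g3 alone therefore does not show a low level of RNA for that subunit. Uqcr10, a small subunit of complex III, was at 0.539 and 1.08 FPKM in the wild-type libraries and 0.290 and 0.283 in the knockout, for which the smallest whole fragments are 2, 4, 1 and 1. Both knockout values were below wild type, but at so few fragments a difference would not be detectable. The actual counts may be multiples of these smallest numbers, which imply a length of 196 bp. The gene was under the filter and was not tested. Ndufa11, a membrane subunit of complex I, was at 0.414 and 0.197 in wild type and 0.318 and 0.352 in the knockout. Cox6b1, at the dimer contact of complex IV, was at 0.370 and 1.55 in wild type and 0.478 and 0.389 in the knockout, with wild-type replicate 2 apart from the rest. Atp5f1, the b subunit of the peripheral stalk, was at 2.85 and 2.51 in wild type and 2.19 and 2.39 in the knockout. Its partner in the same stalk Atp5o was at 27.9 and 31.3 in wild type and 25.7 and 32.4 in the knockout. In these genes the low level was found in all 4 libraries. Rps28, a ribosomal protein gene that all cells use and that starts 29 bp from Ndufa7, was likewise at 0.0753 FPKM or less in every library. The handling of short genes and of reads with several matches is not given in the sources used here, and its part in these levels was not tested.

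Some member values may also hold reads of other rows. An overlapping row was found for 49 of the 89 members, and in 29 of them it reached at least 0.1 times the level of the member. Of the 20 low members, 7 had no overlapping row. Cox6c, a subunit of complex IV, had a mean of 2.51 FPKM and shared 43.2% of its span with Vps13b on the opposite strand, at 17.3 FPKM. Uqcrh overlapped Gm12854, at 38.8 FPKM, over 3.66% of its span on the opposite strand. Ndufab1, the mitochondrial acyl carrier protein, was at 1.71 and 2.01 FPKM in the wild-type libraries and 1.71 and 1.91 in the knockout, while its pseudogene Ndufab1-ps was at 3.47 and 2.35 in wild type and 4.10 and 3.06 in the knockout. The pseudogene was higher than its parent in all 4 libraries. Gm10250, a pseudogene of the Atp5h subunit of the peripheral stalk, was at 15.6 and 19.5 in wild type and 24.6 and 21.0 in the knockout, beside 52.6 and 51.6 in wild type and 48.6 and 58.1 in the knockout for Atp5h. Whether strand was used in counting is not given in the sources used here, so these members are uncertain.

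The partners of these genes gave no call either. Of 13 subunits encoded in mitochondrial DNA, 9 had a row and 8 were tested, with 2 higher and 6 lower on average, 0 without overlap and a median log2 difference of -0.064. The complex IV catalytic subunit gene mt-Co1 was at 4862 and 4595 FPKM in the wild-type libraries and 4020 and 4813 in the knockout. For complex III, mt-Cytb was at 665 and 680 in wild type and 548 and 710 in the knockout, and for complex I, mt-Nd2 was at 294 and 302 in wild type and 265 and 435 in the knockout. In all 3, knockout replicate 1 was the lowest library. Levels of genes cut from the same polycistronic transcripts were far apart, since mt-Co2 had a mean of 55.3, mt-Co3 of 24.8 and mt-Atp6 of 14.1 FPKM, so the levels of mitochondrial and nuclear subunits were not compared.

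Assembly factors outside the naming rule had 34 of 43 tested, 16 higher and 18 lower, with a median of -0.0088. Cox11, a copper chaperone for complex IV, was at 2.80 and 2.03 FPKM in the wild-type libraries and 3.25 and 3.64 in the knockout without overlap (log2 difference 0.39, limma adjusted p = 0.971). Uqcc3, an assembly factor of complex III, was at 8.60 and 7.77 in wild type and 11.6 and 9.30 in the knockout, also without overlap. The most abundant of these factors, Coa5 and Sdhaf2, were at 21.8 to 26.9 and 19.4 to 20.8 FPKM over the 4 libraries.

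Among 22 regulators of mitochondrial gene expression 20 were tested, 9 higher and 11 lower, with a median of -0.0044. Without overlap, 0 were higher and 4 of the 20 lower (near the 17.7% of all tested rows that were lower without overlap). Mterf3, a repressor of mitochondrial transcription, was at 7.48 and 6.80 FPKM in the wild-type libraries and 5.43 and 6.13 in the knockout, and Polg2, the accessory subunit of the mitochondrial DNA polymerase, at 3.89 and 3.61 in wild type and 3.13 and 3.02 in the knockout. Both knockout values were lower in each, without passing (log2 differences -0.27 and -0.22, limma adjusted p = 1.00 for both). Nrf1 itself was at 7.12 and 7.95 in wild type and 8.06 and 7.87 in the knockout, Yy1 at 22.1 and 20.7 in wild type and 20.9 and 22.5 in the knockout, and Esrra, a nuclear receptor that acts on these genes, at 11.4 and 12.3 in wild type and 14.2 and 11.3 in the knockout. The genotypes overlapped for all 3. Ppargc1a, the coactivator that drives mitochondrial biogenesis in muscle and brown fat, was at 0.142 FPKM or less in every library, and Ppargc1b at 2.25 to 2.52.

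The 18 genes of the tricarboxylic acid cycle and pyruvate dehydrogenase were all tested, 11 higher and 7 lower, with a median of 0.015. Without overlap, 3 were higher (16.7%, near the 13.2% of all tested rows) and 0 lower. Cs, citrate synthase, was at 47.0 and 50.5 FPKM in the wild-type libraries and 45.9 and 49.9 in the knockout with overlap. Suclg2, a subunit of succinyl-CoA ligase, was at 3.62 and 3.94 in wild type and 4.09 and 4.70 in the knockout without overlap, and Ogdh, of the oxoglutarate dehydrogenase complex, ranged from 38.9 to 40.4 over the 4 libraries. Other electron donors and carriers had 20 of 22 tested, 7 higher and 13 lower, with a median of -0.054. Vdac3, an outer membrane channel, was at 22.2 and 23.5 in wild type and 16.7 and 20.5 in the knockout without overlap (log2 difference -0.29, limma adjusted p = 0.994). Coq5, an enzyme of ubiquinone synthesis, was at 7.36 and 8.27 in wild type and 6.21 and 6.88 in the knockout without overlap. Slc25a5, the carrier that exchanges ATP for ADP, was at 146 and 162 in wild type and 139 and 162 in the knockout, and Ucp2, an inner membrane carrier, at 81.3 and 90.9 in wild type and 96.6 and 82.4 in the knockout, both with overlap. In these 5 lists 0 genes passed with limma at an adjusted p of 0.05, and 0 had an unadjusted p under 0.05.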

How the data were processed

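RNA of 2 wild-type and 2 GM1082 KO libraries was sequenced from Illumina libraries, per the labels' protocols. The authors deposited FPKM values for 62046 rows, 40546 of them NONCODE long noncoding RNAs. The submitters' processing notes list Bowtie 0.12.2 and mm9. The counter, its use of strand and its treatment of multiply mapped reads are not stated in the sources at hand. Coordinates in the table match RefSeq GRCm38 (both ends within 1 kb for 75 of 89 members). Depth was read from low values of rows spanning 1000 to 3000 bp, of which 83.4% to 84.4% lay within 0.05 of a whole multiple. The 24535 rows with a mean of 1 FPKM or more were fitted by limma 3.58.1 (R 4.3.3) on log2(FPKM + 1) (eBayes with a trend, Benjamini-Hochberg over all rows, read at 0.05), after a test on simulated data. This scale understates changes of low genes. The members, lists and alternatives were chosen with earlier results of these data known. Promoter motifs were chosen with the promoters at hand, the NRF1 core replacing a longer form of the palindrome searched first. Named genes were, per complex, the 3 most abundant members and the 2 with the smallest p, all paralogue pairs, and 2 plus 2 per companion list, with the most abundant Ndufaf factor and the 2 with the smallest p. Some genes the rule names are not reported here. Members named outside this rule were chosen after their values were seen. Same-numbered libraries are not stated to be paired, and no pairing was used. Their deviations were nearly uncorrelated across rows (r = 0.051), which cannot exclude a pairing, since rows are not replicates of it. Alternatives tried were filters of 0.1 and 5 FPKM and none, a pseudocount of 0.1, 3 other scalings, other variance settings, rows with a symbol only, the block, and each library left out.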

Additional observations from a re-analysis of the deposited data

How the results depend on the processing

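No alternative brought a member past an adjusted p of 0.05, and the smallest adjusted p of a named gene over all 15 settings was 0.682. Sums per complex moved by less than the spread between replicates in all 42 recomputed values. The 42 recomputed paralogue ratios moved by less than the SD over the 4 libraries, which was fixed in advance. Scaling a library leaves a ratio unchanged, and leaving out 1 of 4 libraries shifts a mean by less than that SD. For the sums a left-out library also stays within the limit by construction, so only the scalings could have shown a move. The replicate numbers are not stated to pair the libraries. With the replicate number as a block the rows past an adjusted p over the whole table were 6 in place of 3, with 0 members among them. With a filter of 0.1 FPKM or no filter, 0 rows passed. Leaving out 1 library gave 0 to 24 rows (12 and 24 without wild-type replicates 1 and 2, 0 without either knockout replicate). A left-out library assumes that the lone sample of its group varies like the others. Members at an unadjusted p under 0.05 were 6 higher with no filter and 1 lower with a filter of 0.1 FPKM, and 1 to 8 higher and 0 to 2 lower with a library left out (1 higher without wild-type replicate 1, 8 without knockout replicate 2). Members without overlap were 2 lower with a filter of 5 FPKM, where fewer members were tested. With a library left out they were 26 to 42 higher and 13 to 29 lower, since 3 libraries overlap less often than 4 by construction. The median log2 difference of complex IV was 0.025 with a filter of 0.1 FPKM and with no filter, and 0.084 to 0.16 with a library left out. With a library left out the median ranged from -0.072 to 0.19 in complex II, from -0.012 to 0.072 in complex III, from -0.049 to 0.058 in complex V and from -0.056 to 0.14 in the Ndufaf factors. The cause of these changes was not tested.

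Some named genes close to 0 changed sign. Scaled to equal summed FPKM, the log2 differences were -0.0069 for Sdha, -0.0021 for Uqcrh, -0.0071 for Cox4i1, -0.013 for Atp5b, -0.0099 for Coa5, -0.0028 for Yy1 and -0.012 for Ogdh. With quantile normalization they were -0.00053 for Sdha, -0.0036 for Uqcrh, -0.019 for Atp5b and -0.013 for Ogdh, and with median-of-ratios scaling 0.0011 for Uqcrb. With a library left out, the log2 difference ranged for Ndufb11 from -0.086 to 0.033, Sdha from -0.072 to 0.11, Sdhb from -0.075 to 0.19, Uqcrh from -0.022 to 0.066, Uqcrfs1 from -0.23 to 0.032, Uqcrb from -0.26 to 0.25, Cox8a from -0.11 to 0.52, Atp5a1 from -0.049 to 0.26, Atp5b from -0.096 to 0.12, Atp5c1 from -0.083 to 0.061, Ndufaf1 from -0.17 to 0.14, Cycs from -0.038 to 0.35, Cox7a2 from -0.16 to 0.079, Ndufa4 from -0.031 to 0.46, Atp5g1 from -0.059 to 0.27, Atp5g2 from -0.16 to 0.12, Atp5g3 from -0.10 to 0.23, mt-Nd2 from -0.17 to 0.55, mt-Cytb from -0.30 to 0.078, mt-Co1 from -0.23 to 0.026, Coa5 from -0.13 to 0.16, Yy1 from -0.029 to 0.070, Esrra from -0.064 to 0.25, Cs from -0.085 to 0.035, Ogdh from -0.014 to 0.039, Slc25a5 from -0.15 to 0.077 and Ucp2 from -0.059 to 0.17.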
